A study of Homo sapiens with 24 samples.

Results

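Capan1 is a human pancreatic adenocarcinoma line with ductal epithelial features. The data compared here are 2 arrays of Capan1 cells carrying scramble hairpins with 2 arrays of Capan1 cells given the vehicle DMSO, 4 of the 24 arrays of the series. A gene was kept if its detection p-value, which sets its signal against the negative control probes of the same array, was under 0.01 on each array of 1 group or of both. This kept 10895 of 34595 gene rows. The DMSO cells were exposed to vehicle for 24 h, and their labels name no virus. The scramble cells were infected with a pSuperRetroPuro retrovirus encoding a scramble sequence and kept in puromycin at 1 ug/mL for 48 h. They then received a pSuperRetroNeoGFP scramble virus, which adds green fluorescent protein, followed by geneticin at 500 ug/mL for 4 days. Both groups were grown in RPMI medium with serum. The infections, the hairpin vectors, the selection drugs, the fluorescent protein, the absence of DMSO and the extra days in culture came together in the scramble group and cannot be told apart.

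The study asked what the kinases IRAK1 and IRAK4 do in pancreatic cancer cells, using Capan1 and a further line, Panc1. Each line has 6 groups of 2 arrays: DMSO, an IRAK1/4 inhibitor (10 uM, 24 h), scramble, shIRAK1, shIRAK4 and both hairpins together (shIRAK1+4). The series text names Panc1 alone for the hairpins, but hairpin arrays of both lines were given. The scramble group is the control of the hairpins and the DMSO group that of the inhibitor, so the comparison shows how far the controls stood from each other.

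IRAK1 and IRAK4 relay signals from the interleukin-1 and Toll-like receptors, through the adaptor MYD88, to the transcription factor NF-kB. NF-kB turns on chemokines, cytokines and its own inhibitors, and in pancreatic ductal cancer cells it is often active. Retroviral infection followed by drug selection exposes cells to foreign RNA and DNA, kills cells without the vector and leaves a population grown from the survivors.

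The 4 arrays carried 11069 to 11382 detected genes. Levels below are log2 signals after background correction and quantile normalization. Over the tested genes, Pearson's r was 0.9956 between the DMSO arrays and 0.9935 between the scramble arrays, and 0.9624 to 0.9647 across the groups. Nothing in the labels tells if paired arrays stem from different dishes, and every p-value below therefore reflects variation among these samples alone, possibly of technical origin. All 14 ductal and epithelial markers were detected in both groups, among them EPCAM, whose levels were 12.53 and 12.42 with DMSO and 12.27 and 12.17 with scramble. Of these 14, 2 were higher with scramble, among them the transcription factor ELF3, and SOX9 and KRT8 were lower. The KRT8 call was lost under median scaling (adjusted p = 0.557) and depended on which DMSO and scramble arrays were in the fit. On both arrays of a group, of 13 fibroblast markers 1 was detected with DMSO and 1 with scramble, of 9 endothelial markers 1 with DMSO and 2 with scramble, of 15 immune markers 3 and 2, and of 12 acinar and islet markers 1 in each. The immune marker PTPRC, the endothelial CDH5 and the fibroblast COL1A2 were not detected on any of the 4 arrays. The endothelial PECAM1 was detected with scramble only, at 5.75 and 5.77 against 4.82 and 4.99, and the fibroblast LUM read 7.37 and 7.20 against 4.71 and 4.76 without passing detection. Summed levels of the 9 endothelial markers were 43.8 to 43.9 with DMSO and 45.6 to 46.0 with scramble, and those of the 13 fibroblast markers 65.5 to 66.3 and 67.3 to 67.9. These are bulk cultures, in which fewer cells of a type and less RNA per cell cannot be told apart.

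With scramble, 805 genes were higher and 786 lower than with DMSO in limma's moderated test at an adjusted p under 0.05, together 1591 genes or 14.6% of those tested (7.39% higher, 7.21% lower). More than 2-fold changes numbered 239 up and 272 down, and more than 4-fold changes 46 up and 73 down. The median change over all tested genes was 0.006 on the log2 scale. The 2 scramble arrays lay above both DMSO arrays for 33.4% of all tested genes and below both for 32.6%, so a lack of overlap between 2 and 2 arrays is common here. The count rests on having 4 arrays: it fell to between 762 and 825 with any 1 of them left out, and to 598 when arrays were scaled to a common median in place of quantile normalization.

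The size of a change in a faint gene depends on the background that is subtracted. The background was estimated from gene rows that behave as 1 probe. When it was estimated from all gene rows, which sets it higher, the fold was more than 1.5 times smaller for 77 of the 136 named genes that passed, and no direction turned. CCL20 then changed by -4.73 and CCL2 by -2.84, LYPD2 by 2.90, PROM2 by 1.72, LY6D by 1.40 and PSCA by 0.79 on the log2 scale. The changes of genes detected in 1 group only also shrank, with KRT13 at 2.70, VGLL1 at 0.58, CDH17 at -2.12, REG4 at -0.93, VNN1 at -0.56 and DUOX2 at -0.56. The folds given below, those written as at least a value included, hold for the background from rows of 1 probe.

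**Figure D1:**
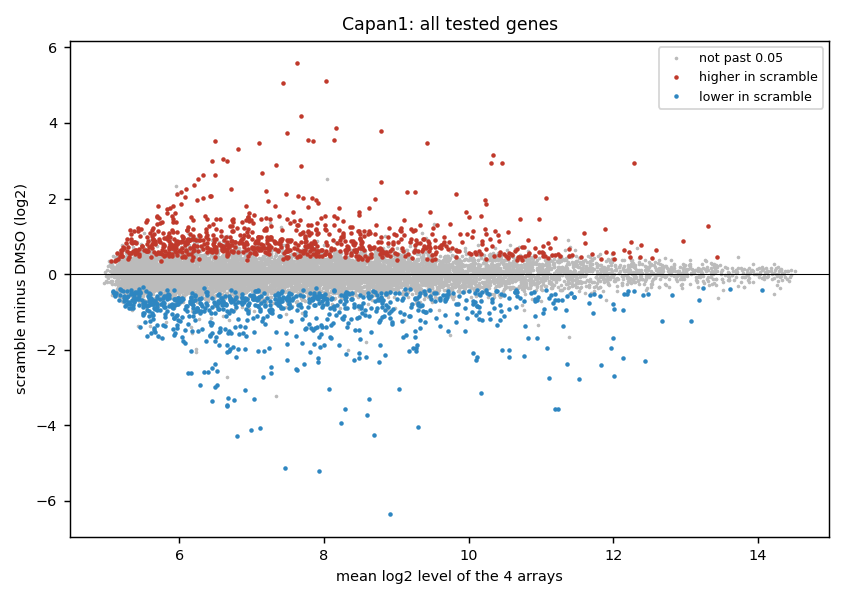
Change between scramble and DMSO (vertical axis, log2) against the mean level of the 4 Capan1 arrays (horizontal axis, log2) for the 10895 tested genes, 1 point each. The 805 genes higher with scramble are red, the 786 lower are blue, and the remaining genes are grey; the lowest point, at -6.35, is CCL20.

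Chemokines and other NF-kB targets made up much of the far end of the falls. The list of targets of NF-kB and inflammation had 33 tested members, of which 25 were lower and none was higher, where 7.21% of all tested genes fell. Of the 33, 24 were detected on all 4 arrays. Members detected in 1 group only had their direction set by the detection filter. The list's median change was -1.68 against 0.006 over all genes. CCL20, a chemokine that draws CCR6-bearing lymphocytes and dendritic cells, read 12.18 and 11.99 on the DMSO arrays and 5.63 and 5.84 on the scramble arrays. It fell by 6.35 ± 0.79 on the log2 scale (SE; limma adjusted p = 3.33e-05) or 81.8-fold, and the scramble arrays lay just above the detection limit. CCL2, the monocyte chemokine, read 10.53 and 10.54 with DMSO and 5.15 and 5.52 with scramble, where 1 of the 2 arrays detected it. The change was -5.20 ± 0.36 (adjusted p = 5.52e-08). CCL2 was tested because both DMSO arrays detected it, so that choice favoured its direction and its adjusted p adds no support to it.

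CXCL1, a neutrophil chemokine, stood at 11.20 and 11.44 with DMSO and at 7.02 and 7.55 with scramble, a change of -4.04 ± 0.57 (adjusted p = 0.000127). CXCL8, listed under its older name IL8, stood at 11.66 and 11.84 against 8.33 and 8.86, a change of -3.16 ± 0.49 (adjusted p = 0.000293). LTB, lymphotoxin beta, a ligand of the tumour necrosis factor family, stood at 10.76 and 10.88 against 6.38 and 6.75, a change of -4.26 ± 0.53 (adjusted p = 3.33e-05). All 3 genes were high on both DMSO arrays and at least 8.92-fold lower with scramble. UBD, a ubiquitin-like modifier also called FAT10, fell by 3.30 ± 0.26 (adjusted p = 2.26e-07), from 10.23 and 10.31 to 6.86 and 7.09. IL32, a cytokine, fell by 3.04 ± 0.31 (adjusted p = 3.14e-06), from 10.70 and 10.43 to 7.54 and 7.5. The members that did not pass included NFKB1, the gene of the p105 and p50 subunit, at 10.57 and 10.52 with DMSO and 10.25 and 10.20 with scramble (adjusted p = 0.322). BCL3 and IRF1 had positive changes of 0.19 and 0.56, with adjusted p = 0.676 and 0.407. Between 20 and 22 members fell with any 1 array left out, and 19 under median scaling.

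The bases before the start sites of CCL20 and CXCL1 are shown because both genes were among the 3 largest falls of chemokines and hold the kappa-B motif searched, GGGAA and CC with 3 bases of any kind between them, read on both strands. Letters are from RefSeq on GRCh38.p14, 5′ to 3′ on the gene's strand, and end at the base before the start. Capitals mark the motif. The CCL20 stretch is chr2:227813722-227813841 on the plus strand, with the match beginning at position -80, and the CXCL1 stretch is chr4:73869273-73869392 on the plus strand, with overlapping matches at -79 and -78 on opposite strands.
CCL20: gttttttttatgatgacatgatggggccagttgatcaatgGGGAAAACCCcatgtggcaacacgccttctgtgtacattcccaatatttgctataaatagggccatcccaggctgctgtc
CXCL1: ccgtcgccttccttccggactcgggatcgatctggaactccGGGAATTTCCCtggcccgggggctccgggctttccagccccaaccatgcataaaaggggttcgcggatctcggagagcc
Of the 25 members that fell, 22 had a promoter in the table and 9 of these held the motif within 250 bases before the start. Of all 28 tested members with a promoter, 11 held it. Of 27305 promoters 6.03% did. A match is a description of the letters in this window and does not show that a factor bound there.

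Within the signalling chain itself the changes were smaller. IRAK1 read 10.31 and 10.27 with DMSO and 10.48 and 10.42 with scramble, a change of 0.16 ± 0.29 (adjusted p = 0.771). IRAK4 was near the detection limit, at 5.09 and 5.70 with DMSO and 4.92 and 5.07 with scramble, and was detected on 1 of the 4 arrays, so it was not tested. Of 13 tested members of the IRAK signalling list, 4 fell (30.8%, where 7.21% of all tested genes did) and none rose. They were IL1R2, a decoy receptor for interleukin-1 (-1.19 ± 0.34, adjusted p = 0.0240), the kinase IRAK2 (-1.0 ± 0.31, adjusted p = 0.0362), the negative regulator IRAK3 (-0.67 ± 0.19, adjusted p = 0.0207) and the ubiquitin ligase PELI1 (-0.55 ± 0.16, adjusted p = 0.0241). The adaptor MYD88 read 8.16 and 7.94 with DMSO and 8.09 and 7.85 with scramble (adjusted p = 0.84). The 4 calls rest on all arrays: under median scaling none of the 13 passed, and with 1 array left out between 0 and 2 did.

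Metallothioneins, small cysteine-rich proteins that bind zinc and copper, fell together. All 8 tested members of the metallothionein list were lower with scramble, where 7.21% of all tested genes fell, with a median change of -2.20. Of the 8, 6 were detected on all 4 arrays. The others, MT1E and MT1G, were tested because both DMSO arrays detected them. That choice favoured their direction, and their adjusted p adds no support to it. MT2A read 13.58 and 13.58 with DMSO and 11.28 and 11.30 with scramble, a change of -2.29 ± 0.29 (adjusted p = 3.52e-05). MT1A read 13.25 and 13.24 against 10.84 and 11.21, a change of -2.22 ± 0.29 (adjusted p = 4.84e-05). MT1G, the dimmest of them, read 7.64 and 7.76 against 5.01 and 5.42, a change of -2.48 ± 0.33 (adjusted p = 5.48e-05). The DMSO arrays agreed closely and the scramble arrays lay about 2 log2 units lower for each. MT1E, MT1X and MT1F changed by -2.20, -2.20 and -1.95, and MT1E was listed as detected with DMSO only. The 2 members that are not metallothioneins fell less: the zinc exporter SLC30A1 by 1.22 ± 0.34 (adjusted p = 0.0212) and the zinc-sensing transcription factor MTF1 by 0.66 ± 0.21 (adjusted p = 0.0427). Metallothionein transcripts are near-identical, so these probes may share signal and the genes are not independent of each other. Between 6 and 7 of the 8 passed with 1 array left out, and 6 under median scaling. MT1G lost its call (adjusted p = 0.223) with background from all rows.

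MTF1 acts through metal response elements, and the stretches before MT2A and MT1X are shown because they hold several. MT1X was chosen after its values and matches had been seen. The motifs searched were TGCACNC and TGCGCNC on both strands, in capitals below. The MT2A stretch is chr16:56608404-56608583 and the MT1X stretch chr16:56682290-56682469, both on the plus strand of GRCh38.p14 from RefSeq, read 5′ to 3′ up to the base before the start.
MT2A: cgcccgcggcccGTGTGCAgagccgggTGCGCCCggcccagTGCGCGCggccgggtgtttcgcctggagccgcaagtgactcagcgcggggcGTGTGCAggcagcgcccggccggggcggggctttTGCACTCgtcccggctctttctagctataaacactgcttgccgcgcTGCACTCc
MT1X: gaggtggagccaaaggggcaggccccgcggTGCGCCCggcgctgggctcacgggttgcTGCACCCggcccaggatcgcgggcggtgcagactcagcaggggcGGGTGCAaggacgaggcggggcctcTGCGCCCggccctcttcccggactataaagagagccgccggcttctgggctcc
These 180 bases hold 6 matches for MT2A and 4 for MT1X. Of the 8 genes, 4 had a promoter in the table, 3 of them held at least 1 match within 250 bases and 2 held 3 or more. Of all 27305 promoters, 24.7% held at least 1 and 1.56% held 3 or more.

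**Figure D2:**
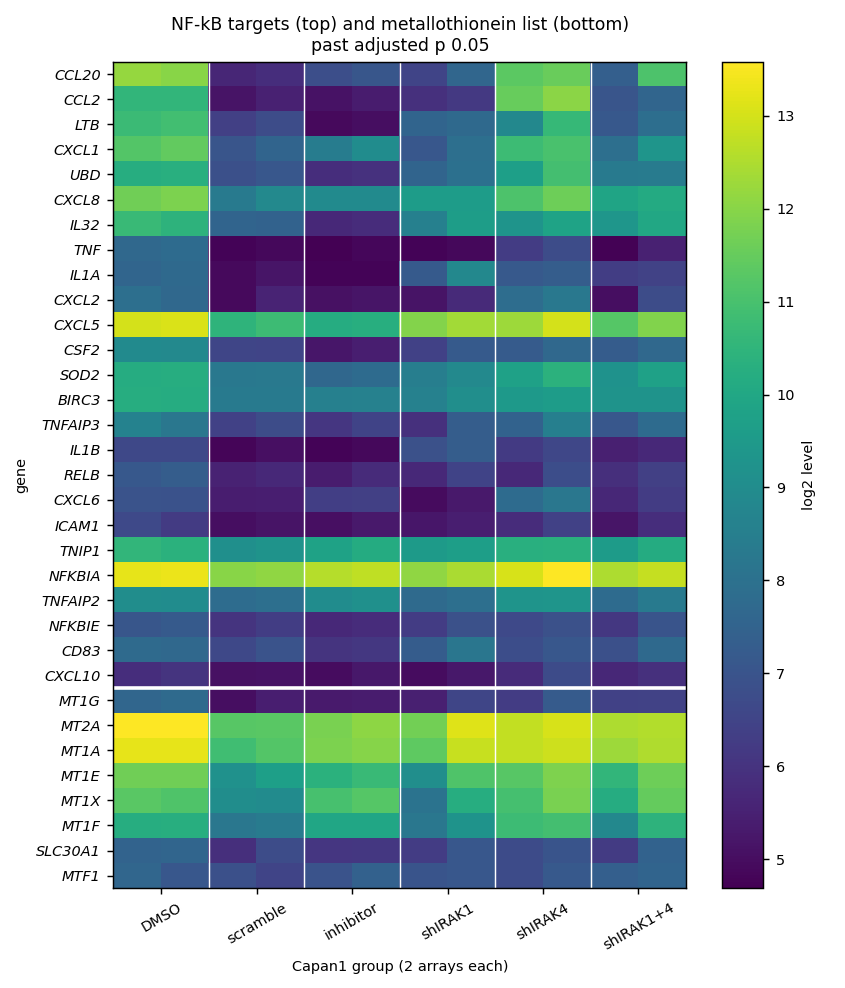
Log2 level (colour scale) of the 25 NF-kB list members (above the white line) and 8 metallothionein list members (below it) past the threshold, in rows, on the 12 Capan1 arrays, in columns of 2 per group. For the 4 groups other than DMSO and scramble, the lower of the 2 arrays is drawn on the left. The scramble columns are darker than the DMSO columns in every row, while the shIRAK4 columns are bright for CCL20 (mean 11.45), CCL2 (mean 11.78) and MT2A (mean 12.90).

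The largest rise among genes detected on all 4 arrays was that of LYPD2, a member of the Ly6 family of surface proteins. It read 5.59 and 5.34 with DMSO and 10.62 and 10.54 with scramble. This was a rise of 5.11 ± 0.48 (adjusted p = 1.05e-06), 34.6-fold. PROM2, prominin 2, a protein of plasma membrane protrusions, rose by 4.19 ± 0.23 (adjusted p = 2.51e-09), from 5.48 and 5.69 to 9.85 and 9.70. LY6D, a further Ly6 family member, rose by 3.55 ± 0.31 (adjusted p = 6.56e-07), from 6.03 and 5.97 to 9.56 and 9.53. All 3 were faint on both DMSO arrays and at 9.53 or more on both scramble arrays.

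PSCA, prostate stem cell antigen, a surface antigen that pancreatic cancers also carry, read 5.27 and 5.48 with DMSO and 9.05 and 8.63 with scramble, a rise of 3.47 ± 0.38 (adjusted p = 7.61e-06). S100A9, which forms calprotectin with S100A8, read 8.80 and 9.18 against 11.92 and 11.97, a rise of 2.95 ± 0.40 (adjusted p = 6.76e-05). S100A8 itself was detected with scramble only, at 7.69 and 7.92 against 5.09 and 5.29, at least 5.73-fold higher (adjusted p = 0.00628). Its call was lost without scramble array 2 (adjusted p = 0.057), without DMSO array 1, and with background estimated from all rows (adjusted p = 0.772). KRT13, the keratin of non-cornified stratified epithelium, was not detected with DMSO (4.85 and 4.83) and read 10.57 and 10.26 with scramble, at least 35.1-fold higher. S100A8 and KRT13 were tested because the scramble arrays detected them, so their direction was set by that choice. The adjusted p of S100A8 adds no support to it. Of 28 tested members of the squamous and surface list, 11 rose (39.3%) and 4 fell (14.3%), where 7.39% and 7.21% of all tested genes did. The list's median change was 0.40, its members moved both ways, and 22 of the 28 were detected on all 4 arrays. The cornified envelope precursor SPRR2D fell from 8.29 and 8.36 to 4.92 and 5.16 (-3.28 ± 0.30). It was detected with DMSO only, so its direction was set by the detection filter. With 1 array left out, 4 to 6 members rose and 3 fell.

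Among the other large rises were genes of lipid carriage, the cytoskeleton and secretion. CRABP2, a carrier of retinoic acid, read 6.75 and 7.06 with DMSO and 10.73 and 10.66 with scramble, a rise of 3.79 ± 0.44 (adjusted p = 1.49e-05). CNN3, an actin-binding calponin, read 6.31 and 6.41 against 9.96 and 9.87, a rise of 3.56 ± 0.31 (adjusted p = 5.59e-07). PLAT, tissue plasminogen activator, was already high at 10.81 and 10.83 and reached 13.79 and 13.73, a rise of 2.94 ± 0.25 (adjusted p = 4.84e-07). None of these groups overlapped, which the choice of the largest rises required and which held for all 1591 called genes. SHISA2, a protein that holds immature Frizzled and FGF receptors in the endoplasmic reticulum, rose by 3.86 ± 0.41, and the annexin ANXA9 by 3.51 ± 0.20. GABBR2, a subunit of the GABA-B receptor, rose by 2.88 ± 0.24, SNCG, gamma-synuclein, by 2.86 ± 0.24, and ANKRD1, a nuclear protein and common readout of YAP, by 2.67 ± 0.40. SLC40A1, ferroportin, the cell's iron exporter, rose by 2.43 ± 0.35. The adjusted p of these 5 and of SHISA2 was at most 0.000229. Of genes detected with scramble only, VGLL1, a cofactor of TEAD transcription factors, was at least 9.11-fold higher. ADGRA2, listed as GPR124, an adhesion receptor that serves WNT7 signalling in vessels, was at least 7.35-fold higher, the protocadherin PCDH20 at least 7.20-fold and the peroxisomal oxidase ACOX2 at least 6.34-fold. Genes detected in 1 group only were tested because of the group in which they are high, so their direction was set by that choice and their adjusted p adds no support to it.

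**Figure D3:**
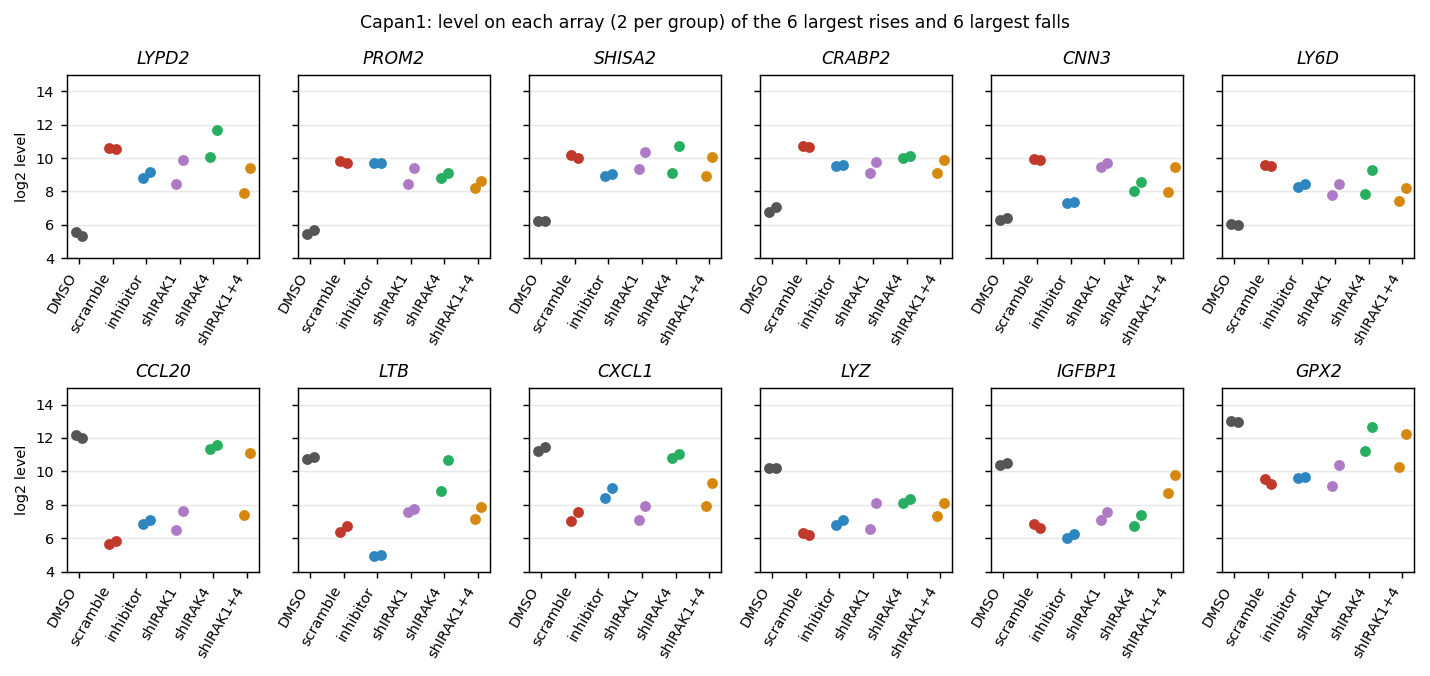
Log2 level on each of the 12 Capan1 arrays (points, 2 per group, groups on the horizontal axis) of the 6 genes with the largest rises (top row) and the 6 with the largest falls (bottom row) among genes detected on all 4 arrays. For the 4 groups other than DMSO and scramble the lower array is drawn first. The DMSO mean is the lowest of the 6 groups for every gene of the top row, and the highest for every gene of the bottom row.

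Further large falls included genes known from gastrointestinal and mucous epithelium. LYZ, lysozyme, which mucous and immune cells secrete, read 10.21 on both DMSO arrays and 6.32 and 6.22 with scramble, a change of -3.94 ± 0.33 (adjusted p = 3.84e-07). LYZ also stands on the immune marker list, whose summed level over 15 markers was 82.4 to 83.2 with DMSO and 78.5 to 78.6 with scramble. The other immune markers detected were CD68 in both groups and CD8A at 5.29 and 5.31 with DMSO, and PTPRC was not detected. GPX2, the gastrointestinal glutathione peroxidase, read 13.03 and 12.94 with DMSO and 9.55 and 9.26 with scramble, a change of -3.58 ± 0.49 (adjusted p = 9.67e-05). TFF3, the intestinal trefoil factor, read 9.97 and 10.18 against 6.57 and 6.43, a change of -3.58 ± 0.80 (adjusted p = 0.00588). TFF3 kept its direction and lost its call without DMSO array 2 (adjusted p = 0.0522).

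Several intestinal-type genes went from a clear level to none detected. They were tested because the DMSO arrays detected them, so their direction was set by that choice and their adjusted p adds no support to it. CDH17, the liver and intestine cadherin, read 10.01 and 10.05 with DMSO and 4.91 and 4.89 with scramble, at least 26.6-fold lower (adjusted p = 0.0116). LGALS4, galectin 4, read 8.98 and 9.11 against 4.91 and 4.94, at least 13.5-fold lower (adjusted p = 0.0385), and REG4, a secreted lectin of the gut, 9.19 and 8.69 against 4.66 and 4.65, at least 12.5-fold lower (adjusted p = 0.00534). The calls of CDH17 and LGALS4 were lost with any 1 of the 4 arrays left out (adjusted p up to 0.0724 and 0.158), and that of REG4 without DMSO array 1 (0.0548), although the 2 groups lay far apart on these arrays. The spread came from the arrays within all 12 groups. For CDH17 the 2 arrays of a group read 5.16 and 10.73 with shIRAK4 and 4.89 and 9.82 with shIRAK1+4. DUOX2, an oxidase that makes hydrogen peroxide at the gut surface, and its maturation factor DUOXA2 were at least 8.64-fold and 14.5-fold lower (adjusted p = 0.000705 and 0.00111), and VNN1, a pantetheinase, at least 8.78-fold lower (adjusted p = 2.24e-08). With background estimated from all rows, DUOXA2 did not pass (adjusted p = 0.14).

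Of 19 tested members of the list of mucins, trefoil factors and surface antigens, 6 fell (31.6%) and 2 rose (10.5%), with a median change of 0.07. Of all tested genes 7.21% fell and 7.39% rose. The members that rose included DMBT1, a mucosal scavenger receptor, from 8.85 and 8.67 to 12.14 and 11.70 (3.16 ± 0.41, adjusted p = 5.1e-05). DMBT1 was listed as detected on 1 DMSO array and was tested because both scramble arrays detected it. That choice favoured its direction, and its adjusted p adds no support to it. MUC5AC, the gastric mucin, was at 5.79 and 5.76 against 5.48 and 5.66 (adjusted p = 0.485). Between 3 and 4 fell with 1 array left out. Other large falls were IGFBP1, a binding protein of insulin-like growth factors (-3.74 ± 0.26, adjusted p = 5.94e-08), PI3, the elastase inhibitor elafin (-3.57 ± 0.54, adjusted p = 0.000224), FUT4, a fucosyltransferase of Lewis antigens (-3.31 ± 0.43, adjusted p = 4.85e-05) and the tetraspan protein TM4SF5 (-3.07 ± 0.41, adjusted p = 6.04e-05). PRSS2, a trypsinogen, read 12.86 and 12.96 against 10.00 and 10.25 (-2.78 ± 0.23, adjusted p = 3.16e-07). The related PRSS1, the only detected acinar marker, read 8.63 and 8.62 against 6.27 and 6.41, and the 2 probes may share signal. The summed level of the 12 acinar and islet markers was 62.0 to 62.3 with DMSO and 59.8 to 60.4 with scramble, and the part of such cells in these falls was not tested.

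Attachment genes fell in part. Of 26 tested members of the epithelial adhesion list, 5 fell (19.2%) and 2 rose (7.7%), where 7.21% and 7.39% of all tested genes did. The share that rose was thus near that of all genes. The laminin chain LAMA3, part of the anchor of epithelium to its basement membrane, changed by -2.47 ± 0.26. It was detected with DMSO only, so its direction was set by the detection filter. The tight junction protein CLDN1 changed by -2.16 ± 0.17 (adjusted p = 2.26e-07). CLDN1 read 11.93 and 11.76 with DMSO and 9.68 and 9.69 with scramble. CDH1, E-cadherin, read 11.46 and 11.20 against 11.55 and 11.19 (0.04 ± 0.56, adjusted p = 0.975), as most of the list did not pass. Between 3 and 4 fell with 1 array left out. MMP7, a metalloproteinase of ductal epithelium, read 12.57 and 12.41 against 9.71 and 9.78 (-2.74 ± 0.24, adjusted p = 5.59e-07), and the hemidesmosome collagen COL17A1 changed by -2.03 ± 0.37 (adjusted p = 0.00119). COL17A1 was detected on 1 scramble array and was tested because both DMSO arrays detected it. Its direction was favoured by the filter, and its adjusted p adds no support to it. COL4A1, a basement membrane collagen, was not detected with DMSO and was at least 2.52-fold higher with scramble, a direction likewise set by the filter. Of 7 tested mesenchymal markers, CDH2, N-cadherin, rose (1.65 ± 0.52, adjusted p = 0.0393) and SNAI2, a repressor of E-cadherin, fell (-0.95 ± 0.25, adjusted p = 0.0176). Both lost their call with any 1 of the 4 arrays left out (adjusted p up to 0.16 and 0.127).

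Part of the mitosis list was higher with scramble. Of 39 tested members, 20 rose and none fell, where 7.39% of all tested genes rose, and the list's median change was 0.65. KIF20A, a kinesin needed for cytokinesis, read 7.78 and 7.62 with DMSO and 9.29 and 9.26 with scramble, a rise of 1.57 ± 0.19 (adjusted p = 1.89e-05). NEK2, a centrosome kinase, rose by 1.23 ± 0.22 (adjusted p = 0.00088; 0.0988 with background from all rows), from 6.51 and 6.67 to 7.86 and 7.78. CCNB1, cyclin B1, the partner of CDK1 at entry to mitosis, rose by 1.19 ± 0.20 (adjusted p = 0.000751), from 7.31 and 7.52 to 8.53 and 8.68. CDC25C, the phosphatase that activates that kinase, rose by 1.20 ± 0.19 (adjusted p = 0.000337). MKI67, the proliferation antigen, was faint and read 5.60 and 5.36 against 5.55 and 5.47 (adjusted p = 0.904). The list for DNA replication and entry into S phase did not move in the same way. Of its 37 tested genes, none rose and 2 fell (5.4%, where 7.21% of all tested genes did), with a median change of 0.01. These 2 were RRM2, a subunit of ribonucleotide reductase (-1.01 ± 0.24, adjusted p = 0.00973), and CCNE1, cyclin E1 (-0.70 ± 0.20, adjusted p = 0.0259). Between 10 and 13 mitosis genes rose with 1 array left out and 6 under median scaling, and none of the 37 replication genes fell in either case.

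Many mitosis promoters carry CCAAT boxes, read by the factor NF-Y, and those of CCNB2, cyclin B2, and NEK2 are shown as examples. CCNB2, which rose by 0.95 ± 0.15 (adjusted p = 0.000283), was chosen after its values and matches had been seen. Capitals mark CCAAT on the strand shown or, as ATTGG, on the other. The CCNB2 stretch is chr15:59104996-59105145 on the plus strand and the NEK2 stretch chr1:211675622-211675771 on the minus strand, RefSeq on GRCh38.p14, 5′ to 3′ on the gene's strand up to the base before the start.
CCNB2: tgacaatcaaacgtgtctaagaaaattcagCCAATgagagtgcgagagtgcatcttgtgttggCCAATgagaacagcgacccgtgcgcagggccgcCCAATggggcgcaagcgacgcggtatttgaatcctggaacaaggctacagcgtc
NEK2: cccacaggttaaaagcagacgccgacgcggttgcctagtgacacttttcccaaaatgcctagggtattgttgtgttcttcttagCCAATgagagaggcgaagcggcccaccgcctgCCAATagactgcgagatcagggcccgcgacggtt
Within 250 bases, 16 of the 19 mitosis genes that rose and had a promoter in the table held the motif, as did 27 of all 33 tested members with a promoter, against 33% of all 27305 promoters. Genes with and without a call on this list thus carried it at similar shares.

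Some chaperones of the endoplasmic reticulum were higher with scramble. Of 23 tested members of that list 10 rose, 1 fell and 12 did not pass, with a median change of 0.44, where 7.39% of all tested genes rose. HSPA5, or BiP, the main chaperone of that compartment, read 7.58 and 7.54 with DMSO and 8.83 and 9.10 with scramble, a rise of 1.40 ± 0.31 (adjusted p = 0.00531). HSP90B1, or GRP94, read 11.32 and 11.27 against 12.57 and 12.40, a rise of 1.19 ± 0.20 (adjusted p = 0.00072). The disulfide isomerase PDIA4 read 6.08 and 5.97 against 6.98 and 7.31, a rise of 1.13 ± 0.22 (adjusted p = 0.00189). The groups did not overlap for these 3, as for all 1591 called genes. ERO1A, listed as ERO1L, the oxidase that recharges those isomerases, fell by 0.99 ± 0.33 (adjusted p = 0.0490). Cytosolic heat shock chaperones behaved otherwise: of 19 tested, 1 rose, the small heat shock protein HSPB1, from 12.62 and 12.72 to 13.89 and 14.01 (1.28 ± 0.15, adjusted p = 1.49e-05). Of 19 tested ATF4 and CHOP response genes, 2 rose, the mTORC1 inhibitor DDIT4 (2.11 ± 0.42, adjusted p = 0.00261) and PHGDH of serine synthesis (1.20 ± 0.28, adjusted p = 0.00771). With 1 array left out, 5 or 6 endoplasmic reticulum genes rose and none fell, HSPA5 did not pass without scramble array 2 (adjusted p = 0.0614), and PHGDH did not pass without DMSO array 2 or scramble array 1 (up to 0.065). Under median scaling 2 rose, with a list median of 0.56 where that of all genes was 0.101.

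The promoters of HSPA5 and HSP90B1 are shown because they hold the endoplasmic reticulum stress element, CCAAT and CCACG with 9 bases of any kind between them, on either strand and overlapping a CCAAT box by its construction. Capitals mark it. The HSPA5 stretch is chr9:125241344-125241493 on the minus strand, with the match beginning at -66, and the HSP90B1 stretch chr12:103930260-103930409 on the plus strand, with the match beginning at -89 and lying on the opposite strand, RefSeq on GRCh38.p14, 5′ to 3′.
HSPA5: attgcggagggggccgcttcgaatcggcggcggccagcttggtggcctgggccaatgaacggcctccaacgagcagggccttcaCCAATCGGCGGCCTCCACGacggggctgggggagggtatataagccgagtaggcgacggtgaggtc
HSP90B1: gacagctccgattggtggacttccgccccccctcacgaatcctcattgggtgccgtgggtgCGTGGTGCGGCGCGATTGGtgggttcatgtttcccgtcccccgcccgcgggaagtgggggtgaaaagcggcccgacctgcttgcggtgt
The 10 members that rose all had a promoter in the table and 6 held this element, CALR, CANX, CRELD2, HSP90B1, HSPA5 and XBP1. No other of the 22 tested members with a promoter held it, and 0.0806% of the 27305 promoters did. The list was chosen with earlier results of these data known, and a match does not show that a factor bound there.

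Genes of fatty acid synthesis and storage rose in part. Of 17 tested, 7 rose (41.2%) and 1 fell (5.9%), with a median change of 0.35, where 7.39% and 7.21% of all tested genes did. SCD, the desaturase that makes monounsaturated fatty acids, read 10.17 and 9.96 with DMSO and 12.20 and 11.96 with scramble, a rise of 2.01 ± 0.43 (adjusted p = 0.00413). ACSL1, which activates long-chain fatty acids, read 5.90 and 6.12 against 7.23 and 7.67 (1.44 ± 0.22, adjusted p = 0.000284), and the elongase ELOVL6 read 8.49 on both DMSO arrays against 9.59 and 9.68 (1.14 ± 0.15, adjusted p = 5.42e-05). Of 22 cholesterol genes, 4 rose (18.2%) and 1 fell (4.5%), with a median change of 0.19. They included INSIG1, the retention factor of SREBP (1.15 ± 0.22, adjusted p = 0.00195). With 1 array left out 4 fatty acid genes rose and none fell, and 2 or 3 cholesterol genes rose.

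Part of the clustered histone list fell. Of 21 tested, 11 were lower (52.4%, where 7.21% of all tested genes were) and none higher, with a median change of -0.81. H4C8, listed as HIST1H4H, read 9.33 and 9.13 with DMSO and 7.77 and 7.71 with scramble (-1.49 ± 0.21, adjusted p = 0.000101), and H1-2, listed as HIST1H1C, read 10.94 and 11.18 against 9.5 and 9.93 (-1.35 ± 0.41, adjusted p = 0.0346). Histone genes are near copies of each other and may share probe signal. With 1 array left out 4 or 5 passed, H1-2 in none of these fits (adjusted p up to 0.206), and under median scaling 1 passed. Of 33 lysosome and autophagy genes, 7 fell (21.2%) and 2 rose (6.1%, where 7.39% of all tested genes did). SQSTM1, the autophagy receptor p62, fell by 1.24 ± 0.20 (adjusted p = 0.000508), from 13.73 and 13.64 to 12.51 and 12.39, and the sulfamidase SGSH by 1.56 ± 0.28 (adjusted p = 0.00113), while the cathepsin CTSH rose by 1.46 ± 0.29 (adjusted p = 0.00246). Under median scaling 2 of the 33 fell and 1 rose, and without scramble array 2 the same numbers passed.

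**Figure D4:**
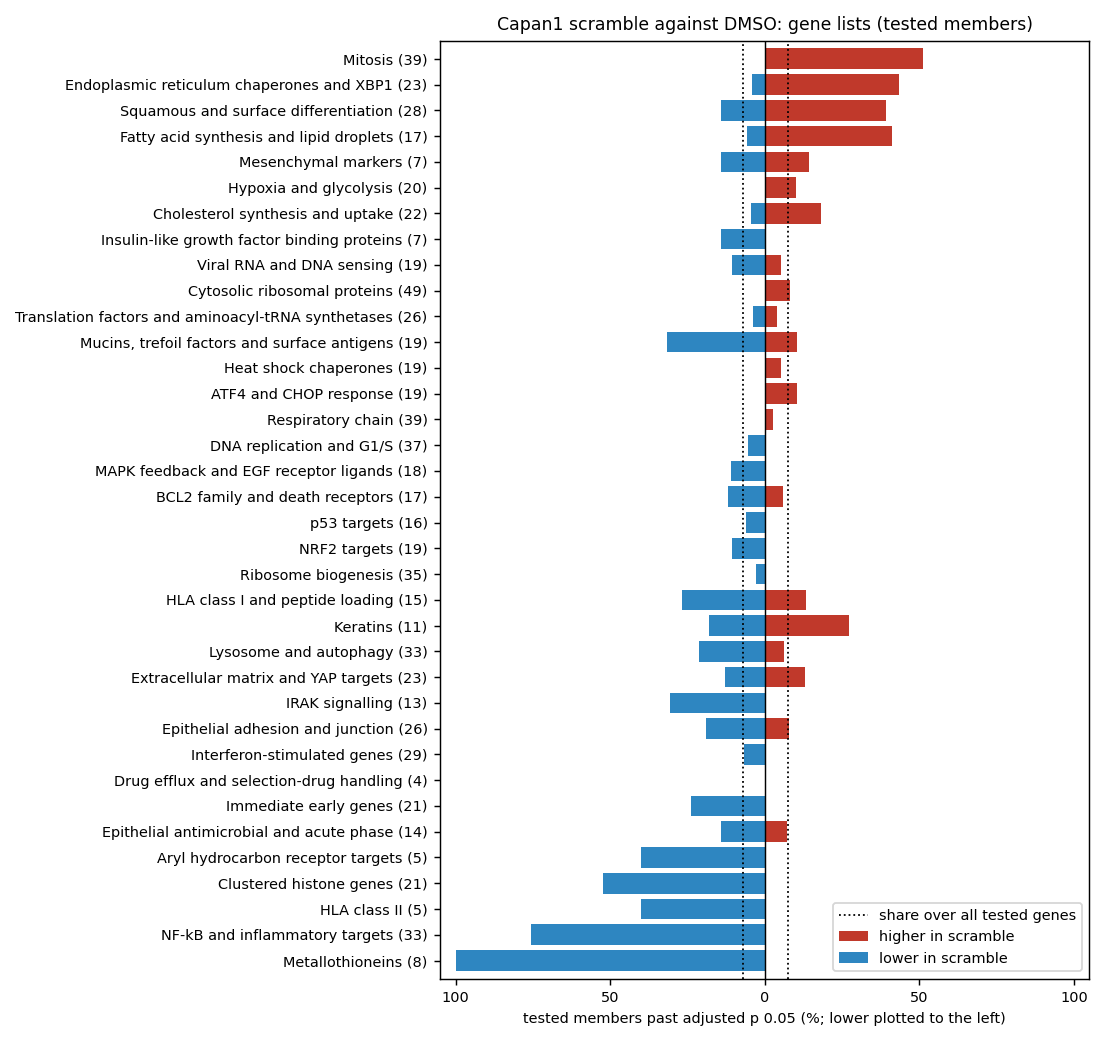
Share of tested members (horizontal axis, percent) that were higher (red, to the right) or lower (blue, to the left) with scramble in Capan1 for each of the 36 gene lists, ordered by median change, with the number tested in parentheses. Dotted lines mark the shares over all tested genes, 7.39% higher and 7.21% lower; mitosis (20 of 39) reaches farthest right and the metallothionein list (8 of 8) farthest left.

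Immediate early genes, which growth factors and stress switch on within minutes, were lower where they were called. The share that fell was 23.8%, where 7.21% of all tested genes did. Of 21 tested, 5 fell and none rose, with a median change of -0.45, and 2 or 3 fell with 1 array left out. IER3, which is also an NF-kB target, had a level of 12.95 ± 0.06 with DMSO (SD, 2 arrays) and read 10.91 and 11.08 with scramble (-1.96 ± 0.14, adjusted p = 5.94e-08). JUN, a subunit of AP-1, read 8.84 and 8.99 against 7.16 and 7.34 (-1.67 ± 0.26, adjusted p = 0.000363; 0.17 with background from all rows). EGR1 read 9.97 and 10.05 against 8.05 and 8.97 (-1.5 ± 0.36, adjusted p = 0.00980), and did not pass without scramble array 1 (adjusted p = 0.15), without either DMSO array, or under median scaling (adjusted p = 0.0576). HBEGF, a ligand of the EGF receptor, fell by 1.58 ± 0.42 (adjusted p = 0.0176), a call lost with any 1 array left out (up to 0.126).

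Called shares of genes that sense or answer viral nucleic acid lay near or below those of all tested genes, 7.39% higher and 7.21% lower. Of 29 tested interferon-stimulated genes none rose and 2 fell (6.9%), with a list median of -0.34. These 2 were IFI6 (-2.11 ± 0.68, adjusted p = 0.0446) and EPSTI1 (-1.02 ± 0.28, adjusted p = 0.0218). ISG15, a ubiquitin-like interferon product, read 10.54 and 10.48 with DMSO and 9.87 and 9.80 with scramble (adjusted p = 0.26). Of 19 sensors and restriction factors 1 rose (5.3%) and 2 fell (10.5%). APOBEC3G, a deaminase that mutates retroviral DNA, rose from 6.82 and 6.95 to 8.42 and 8.15 (1.40 ± 0.37, adjusted p = 0.0164). IRF3, the factor that starts interferon transcription, fell from 9.46 and 9.17 to 8.47 and 8.45 (-0.86 ± 0.15, adjusted p = 0.00087), and the adaptor TICAM1 also fell (-0.64 ± 0.18, adjusted p = 0.0237). With each of the 4 arrays left out in turn, none of the interferon-stimulated genes passed, APOBEC3G did not pass in any of these fits (adjusted p up to 0.118), and TICAM1 passed in 1 of them (up to 0.215). Under median scaling IRF3 and TICAM1 did not pass (0.18 and 0.466). Class I antigen presentation was lower in part: of 15 tested genes of the list 4 fell (26.7%) and 2 rose (13.3%). HLA-E read 10.46 and 10.33 against 9.53 and 9.46 (-0.90 ± 0.17, adjusted p = 0.00194), though it did not pass under median scaling (0.161). The class II chain HLA-DRA read 8.73 and 8.85 against 6.96 and 6.90 (-1.86 ± 0.40, adjusted p = 0.00442; 0.286 with background from all rows). HLA genes are polymorphic and alike, so probes may share signal.

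The lists of damage, drug handling and basic cell functions had between 0 and 4 called members each, and these shares lay near those over all genes or below them. Of 16 p53 targets 1 fell, the death receptor TNFRSF10B (-0.91 ± 0.19, adjusted p = 0.00311; 0.0659 without scramble array 1), and none rose. None of the 4 tested genes of drug efflux and drug handling passed in limma, with 2 at an unadjusted p under 0.05. Of 49 cytosolic ribosomal proteins 4 rose, RPS23 by 1.14 ± 0.25 (adjusted p = 0.00469; 0.08 without DMSO array 2) and the others by at most 0.56, and of 39 respiratory chain genes 1 rose, where 7.39% of all tested genes rose. Of 35 ribosome biogenesis genes 1 fell, of 20 hypoxia and glycolysis genes 2 rose, and of 19 NRF2 targets 2 fell, GPX2 and the reductase AKR1C3 (-2.02 ± 0.56, adjusted p = 0.0225, up to 0.119 with 1 array left out).

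The remaining Capan1 groups show where the 2 control groups lie. These comparisons share arrays with the one above, so levels are given side by side without a test. Over the 10895 genes, scramble and DMSO means differed by a median of 0.23 log2 units, and 5.02% of genes differed more than 2-fold. From DMSO, 8.8% of genes lay more than 2-fold away in the inhibitor group, 3.44% with shIRAK1, 4.34% with shIRAK4 and 1.95% with shIRAK1+4. From scramble, 4.13% did in the inhibitor group, 1.23% with shIRAK1, 3.26% with shIRAK4 and 1.85% with shIRAK1+4. The inhibitor group thus lay nearer to scramble than to DMSO. By this count of group means, the shIRAK1+4 group lay about as near to DMSO as to scramble. Its 2 arrays disagreed more than those of other groups, with a median SD of 0.199 against 0.079 for DMSO and 0.097 for scramble. Its mean may therefore describe neither array.

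For CCL20 the group means were 12.09 with DMSO, 5.73 with scramble, 6.96 with inhibitor, 7.07 with shIRAK1, 11.45 with shIRAK4 and 9.23 with shIRAK1+4. The 2 shIRAK1+4 arrays read 7.37 and 11.09, so that mean describes neither. The median levels of the 33 NF-kB list members were 8.67, 6.77, 6.29, 7.64, 9.30 and 7.73 in the same order of groups. For the metallothionein list the medians were 10.74, 8.66, 10.24, 8.93, 11.12 and 10.24. For CCL20 and for both lists, shIRAK1 lay nearer to scramble and shIRAK4 nearer to DMSO. PROM2, at 5.48 and 5.69 with DMSO, did not follow this order and had means of 9.71 with inhibitor, 8.92 with shIRAK1, 8.97 with shIRAK4 and 8.41 with shIRAK1+4. LYPD2, at 8.99, 9.16, 10.88 and 8.65 in these 4 groups, and CRABP2, at 9.58, 9.42, 10.05 and 9.49, likewise lay above DMSO in each of these groups. ANKRD1 had a mean of 5.81 with DMSO, 8.48 with scramble, 9.15, 7.56 and 7.25 in the 3 knockdown groups, and was not detected with inhibitor (mean 4.81). Whether the DMSO arrays differ from the rest in something other than treatment was not tested.

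In Panc1, a poorly differentiated pancreatic cancer line with separate arrays, the same contrast called 2596 of 10359 genes (25.1%; 1176 higher and 1420 lower). Under median scaling the split became 615 higher and 115 lower, with a median change of all genes of 0.27, so the Panc1 directions depend on the scaling. Of 9111 genes tested in both lines, 585 were higher in Capan1 and 978 higher in Panc1, and 99 were in both sets, 16.9% of the former and 10.1% of the latter, where 10.7% of these genes were higher in Panc1. Of 558 lower in Capan1 and 1202 lower in Panc1, 138 were in both, 24.7% and 11.5%, where 13.2% were lower in Panc1. Higher and lower genes of Capan1 made up 6.42% and 6.12% of the 9111. Opposite calls numbered 103 for genes higher in Capan1, 17.6% of them where 13.2% of all were lower in Panc1, and 51 for genes lower in it, 9.1% where 10.7% of all were higher. Across these genes Pearson's r of the changes was 0.11, and genes are not independent replicates.

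Genes changed alike in both lines included 4 chemokines. CXCL1 fell by 4.04 in Capan1 and by 3.26 in Panc1 (adjusted p = 0.000608), CXCL8 by 3.16 and 2.00 (adjusted p = 0.00625 in Panc1), CXCL2 by 2.56 and 2.24 (0.00231) and CCL2 changed by -5.20 and -2.10 (0.00056). BAMBI, a decoy receptor of the TGF-beta family, fell by 2.34 ± 0.20 in Capan1 and by 2.18 in Panc1 (adjusted p = 1.03e-06). Higher in both were SCD, by 2.01 and 2.81 (0.000192 in Panc1), DDIT4, by 2.11 and 1.31 (0.0293), IDH1, the cytosolic isocitrate dehydrogenase, by 1.52 and 1.36 (0.00426), ANKRD1, by 2.67 and 1.51 (0.0103), and CDCA7, a cell division cycle associated gene, by 1.25 and 1.36 (0.00188), though not in Capan1 without scramble array 2 (adjusted p = 0.056). CDCA7 was detected in Capan1 with scramble only and CXCL2 in Panc1 with DMSO only, so those directions were set by the detection filter. In Capan1, CXCL2 and CCL2 were detected on both DMSO arrays and 1 scramble array. In Panc1, ANKRD1 and CDCA7 were detected on both scramble arrays and 1 DMSO array. In those lines these genes were tested because of the group in which they are high. Their adjusted p there adds no support to their direction. Under median scaling CXCL8 did not pass in Panc1 (adjusted p = 0.0531).

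The lines differed in 1781 of 12143 genes (14.7%) by the interaction term, Capan1 change minus Panc1 change, with 985 positive (8.11%) and 796 negative (6.56%). Under median scaling 151 were positive and 216 negative, with a median over all genes of -0.16. Of 39 mitosis genes 20 rose in Capan1, while in Panc1 none rose and 22 fell. The interaction was positive for 33 of 39 and negative for none. Under median scaling 1 of the 39 fell in Panc1 and 5 had a positive interaction, with list medians of -0.25 in Panc1 and 0.89 for the interaction. Of the 8 metallothionein list members, 1 fell in Panc1, MT2A by 0.87 (adjusted p = 0.0329), and 7 had a negative interaction. Under median scaling none fell in Panc1 (MT2A adjusted p = 0.464) and 6 interactions were negative. Of 20 cholesterol genes tested in Panc1 17 rose, against 4 of 22 in Capan1, and 10 of 22 interactions were negative and 1 positive (5 and 1 under median scaling). EGR1 stood out by its direction, at 6.13 with DMSO and 10.31 with scramble in Panc1 against a fall in Capan1, and CCL20 by its size, with means of 6.96 and 8.10 in Panc1 (adjusted p = 0.306). Also called in opposite directions were SHISA2 (3.86 in Capan1 and -1.69 in Panc1), RHOU, a small GTPase (1.64 ± 0.35 and -1.57), and the transcription factor SOX21 (1.46 ± 0.29 and -1.48). SOX21 was detected in Capan1 with scramble only and SHISA2 in Panc1 with DMSO only, so those 2 directions were set by the detection filter. EDN1, the vasoconstrictor endothelin 1 (-2.20 ± 0.28 and 1.65), PNMA2 (-2.05 ± 0.25 and 1.55) and HBEGF (-1.58 and 1.74) ran the other way. SHISA2 did not pass in Panc1 under median scaling (adjusted p = 0.0792), and SOX21 and EDN1 did not pass in Capan1 with background from all rows (0.247 and 0.21).

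**Figure D5:**
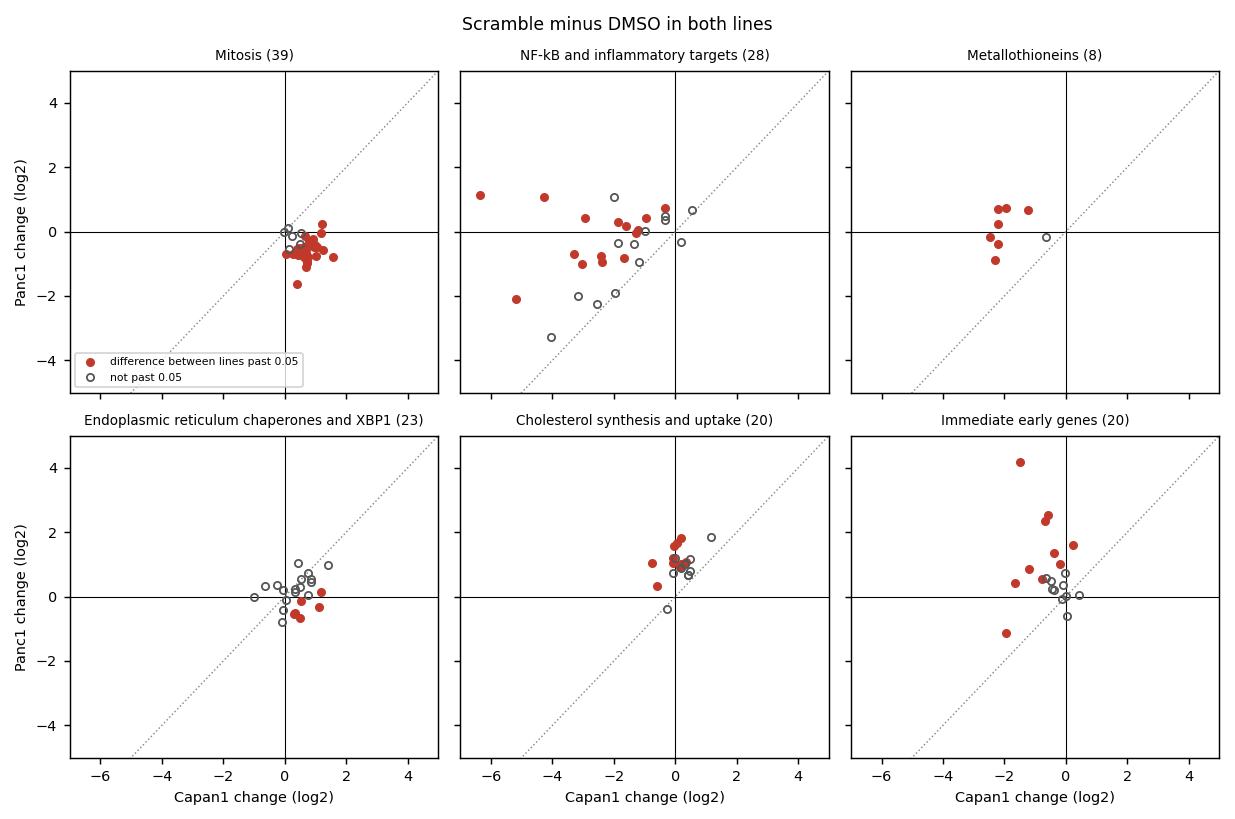
Change between scramble and DMSO in Capan1 (horizontal axis, log2) and in Panc1 (vertical axis, log2) for members of 6 gene lists tested in both lines, 1 point per gene, with equal change on the dotted line. Filled red points passed the interaction test, and open points did not. Of the 39 mitosis genes 36 lie right of and below the lines through 0, while CXCL1 in the NF-kB panel, at -4.04 and -3.26, lies near the dotted line.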

How the data were processed

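RNA was measured on 24 Illumina gene arrays, 2 for each of 12 groups. Per the file headers, the authors deposited a non-normalized table of log2 gene signals with a detection p-value after each. GenomeStudio 2011 is named in the submitters' processing notes; how probes were combined per gene is not given in the sources used here. A deposited table of normalized log2 values served as an alternative. Signals were put on the linear scale, corrected by normexp with the background mean and SD of each array inferred from the detection p-values of 27227 rows that behave as 1 probe, given an offset of 16, quantile normalized over all arrays and returned to log2. The offset pulls the changes of faint genes toward 0. Rows of several probes have unreliable detection p-values, since 7593 of their 18831 values over 8 were listed as not detected against 0 of 97879 for rows of 1 probe.

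Group means of all 24 arrays were fitted in limma 3.58.1 (R 4.3.3), with moderated variances and Benjamini-Hochberg adjustment over all genes tested in a comparison, at a threshold of 0.05. Residual degrees of freedom were 12, and the number of arrays limits the precision. "At least" folds set the brighter group's mean against the detection floor or the dim group's own level, whichever is higher. Older symbols were updated through RefSeq. A trial of the procedure on simulated data used equal noise in every group and no changes in faint genes. It therefore does not bear on faint genes or on groups whose arrays disagree. The 36 gene lists and the members were chosen with earlier results of these data known.

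Named genes were IRAK1 and IRAK4, the 14 largest rises and falls among genes detected on all 4 arrays, and the 6 brightest genes detected in 1 group only, each way. They further included up to 4 called members of each list by size of change and members given as not past the threshold. For the lines they were the 5 most positive and 5 most negative interactions, the 5 genes called alike in each direction and the 3 called oppositely each way. MT1X, MT1F, SLC30A1, MTF1, CCNB2, CALR, CANX, CRELD2, XBP1 and the cell type markers fall outside this rule and were named after their values were seen. Alternatives varied the scaling, background, source table, detection filter, arrays in the fit, replicate block, array weights, size threshold and arrays left out. Some named genes are not reported here.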

Additional observations from a re-analysis of the deposited data

Results flagged for a closer look

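The scramble effect differed between Capan1 and Panc1 for 1781 genes, by the interaction term of the limma model (Capan1 change minus Panc1 change). Among genes detected on all 8 arrays, the most positive terms were those of CRABP2 (4.62 ± 0.62, adjusted p = 9.22e-05), GABBR2 (4.09 ± 0.34, adjusted p = 6.83e-07), CNN3 (3.45 ± 0.44, adjusted p = 5.88e-05), CRISPLD2, a secreted glycoprotein (3.37 ± 0.43, adjusted p = 6.12e-05), and RHOU (3.20 ± 0.49, adjusted p = 0.000351). In Panc1 the changes of CRABP2 and CNN3 were -0.84 and 0.10 and did not pass. GABBR2, CRISPLD2 and RHOU fell there by 1.21, 1.38 and 1.57, of which GABBR2 and CRISPLD2 did not pass under median scaling (adjusted p = 0.0905 and 0.0805).

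The most negative terms were those of CCL20 (-7.49 ± 1.12, adjusted p = 0.000267), EGR1 (-5.68 ± 0.51, adjusted p = 2.23e-06), LTB (-5.31 ± 0.75, adjusted p = 0.000163), FLNC, an actin crosslinker of muscle (-4.37 ± 0.35, adjusted p = 4.61e-07), and EDN1 (-3.85 ± 0.39, adjusted p = 7.64e-06). EGR1, FLNC and EDN1 rose in Panc1 by 4.18, 2.86 and 1.65, while CCL20 and LTB changed there by 1.14 and 1.06 without passing. Each group holds 2 arrays, too few to look for a stray array within a group.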

How the results depend on the processing

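The count of called genes depended on the arrays in the model, the scaling and the size threshold. For Capan1, 1591 genes were called with all arrays in the model, 3387 with only the 8 control arrays of both lines, 893 with Capan1 arrays alone, 2546 with array weights and 598 with median scaling (320 higher, 278 lower), and 206 when a fold of at least 1.5 was tested. For Panc1 (2596), these were 4389 with the 8 control arrays, 730 with median scaling (615 higher, 115 lower) and 182 for the fold. For the difference between lines (1781), they were 3932, 2730 with array weights, 367 with median scaling (151 positive, 216 negative), 268 for the fold and 1009 when detection was asked on every array. Leaving out 1 array gave 762 to 825 for Capan1, 1407 to 1592 for Panc1 and 1000 to 1152 for the difference. Median scaling moved the median change of all genes to 0.101, 0.27 and -0.16.

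The replicate number as a block gave 1017 calls in Capan1, 1900 in Panc1 and 1164 for the difference. With 2 pairs per line and correlations of deviations of 0.211 in Capan1 and 0.018 in Panc1, the numbers do not establish a pairing. A block over all groups of a line, chosen after seeing the data, gave 1781 in Capan1, and a background read from quantiles, also chosen after seeing the data, gave 1556.

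Of 136 named genes called in Capan1, 58 passed under every alternative and no direction reversed, while 49 did not pass with at least 1 array left out, 43 with median scaling and 28 with background from all rows. When a fold of at least 1.5 was tested, 71 of these calls were lost, and 35 were lost with Capan1 arrays alone. The causes were not tested. Genes below the detection floor have only a bound.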
